A study of Rattus norvegicus with 132 samples.

Results

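The genes described here encode the proteins of the cytosolic ribosome. They are all rows of the deposited table whose symbol starts with Rpl or Rps followed by a digit, or with Rplp, without those that start with Rps6k, which are kinases. The rule took 70 of 9271 genes: 36 proteins of the large (60S) subunit, 28 of the small (40S) subunit and 6 relatives whose products are not core proteins of the common ribosome. Levels were read with the GeoMx digital spatial profiler. In this assay, probes bind RNA in a fixed section, light frees their barcodes within a selected region of interest (ROI), and the barcodes are counted by sequencing. ROIs were chosen by hand in cortex, corticomedullary junction, glomeruli and medulla of formalin-fixed rat kidney, 132 in all, from 3 rats in each of 4 groups named Sham, HS, RM and RM-HS. The labels used here give neither age nor strain, and leave RM and HS as letters. Rhabdomyolysis and hemorrhagic shock are their common meaning in trauma, which is a reading and not stated in the labels. The series asks how transcription differs between kidney areas in models of trauma-induced acute kidney injury.

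A ribosome consists of ribosomal RNA and about equal amounts of each of its proteins, and its subunits are put together in the nucleolus and cytoplasm. Small subunit proteins hold the decoding site where the messenger RNA is read. Large subunit proteins surround the site where the peptide bond forms, and the stalk proteins Rplp1 and Rplp2 recruit the elongation factors. Messenger RNAs of ribosomal proteins commonly begin with a 5′ terminal oligopyrimidine (TOP) tract, a C followed by a run of C and T, through which the kinase complex mTORC1 and the RNA-binding protein Larp1 control their translation and stability. In the kidney, tubule cells with a high rate of transport and protein turnover hold many ribosomes.

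The start of several genes that recur in the results is shown first, with C-led runs of pyrimidines (C and T) marked. Each line gives 15 bases before and 15 bases from the annotated first base of the transcript, on the strand of the gene, from RefSeq with build GRCr8 of the rat. Annotated first bases can be imprecise. Capitals mark the longest C-led tract of at least 5 pyrimidines that starts within 10 bases of that first base. A run that begins earlier is marked only from its first C within the 10 bases, as for Rps6. The stretch marked for Rps6 also ends before the annotated first base, so it lies outside the annotated transcript. Such stretches count as tracts in the shares below.
Rps6, at chr5:106420526-106420555 on the minus strand: gacgcCTCCTaggcggtcggctgtgtcaag
Rps4x, at chrX:71342907-71342936 on the minus strand: tccagcgcgcgcagCCTCCgaccctaattt
Rps13, at chr1:180009646-180009675 on the minus strand: gccgtttcctacctcgttCTCTCTTTgctt
Rpl12, at chr3:36661925-36661954 on the plus strand: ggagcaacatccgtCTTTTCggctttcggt
Rps23, at chr2:23814502-23814531 on the plus strand: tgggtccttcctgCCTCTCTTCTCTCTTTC
Rps24, at chr16:96502-96531 on the plus strand: tgagcggtCCTCTTTTCCTCCTTTacagct
Rpl19, at chr10:83519049-83519078 on the plus strand: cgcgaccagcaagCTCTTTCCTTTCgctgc
Rpl35a, at chr11:81235007-81235036 on the minus strand: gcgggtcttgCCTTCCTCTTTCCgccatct
Rpl22, at chr5:168117946-168117975 on the plus strand: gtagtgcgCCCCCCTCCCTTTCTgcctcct
Rpl22l1, at chr2:113683181-113683210 on the plus strand: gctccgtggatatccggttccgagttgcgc
Rps27, at chr2:177964592-177964621 on the minus strand: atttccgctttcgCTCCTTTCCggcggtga
Rps27l, at chr8:76443643-76443672 on the plus strand: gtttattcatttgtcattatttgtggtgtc
The tract of Rps23 is 21 bases long and runs past the end of its window. In these windows the paralogs Rpl22l1 and Rps27l had no such tract, while their parent genes Rpl22 and Rps27 had one of 15 and 9 bases. Of the 54 members that matched the promoter table by symbol, 40 (74.1%) had a tract, against 28.8% of 27457 promoters. With at least 8 pyrimidines, 30 members (55.6%) and 7.33% of promoters had one. The motif CCGGAAG, searched on both strands of 300 bases, was in 33.3% of the matched members and 9.22% of promoters. Because 54 of 70 members (77.1%) had a window, below the 80% set for such a check, these shares do not stand for the whole set. Members not matched included Rpl7, Rpl23a, Rpl32l, Rps20, Rps23rg1 and Rps3a1.

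The values are signals that the authors scaled so that the upper quartile (Q3) was the same in every ROI. Reads recovered from them ranged from 17894 to 2305964 per ROI. Wells in the sample titles place RM and RM-HS ROIs on plate C with 24 Sham ROIs (Sham runs 1 and 2), and all HS ROIs on plate E with 12 Sham ROIs (Sham run 3). A run is a stretch of consecutive wells that passes once through the areas. Each injury was compared with Sham of its own plate, in a fit of 131 ROIs with the run as a random block. Sham on plate C had 6 ROIs in each area and on plate E 3. The cortex held 9 ROIs each of RM, RM-HS and HS. The junction held 8 of RM, 8 of RM-HS and 9 of HS, the glomeruli 8, 6 and 5, and the medulla 9, 9 and 6. The labels do not tie ROIs to rats, so several ROIs of a group share an animal and every p-value over ROIs is too small. In Sham, 4 of 5 measured podocyte markers were higher and 1 lower in glomeruli than in cortex, and 3 of 3 markers of the loop of Henle were higher in medulla. A probe's brightness depends on the probe, so no member's signal is set against another's. Counts of genes called use an adjusted p under 0.05, and the percentage of all 8827 tested genes called the same way follows in brackets. Counts of members under other settings, or without a run, stand without that percentage. They do not show how far the calls over all genes moved too. Only called genes are said to rise or fall.

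All 70 members passed the filter on low values, which asked for over 2 times the negative probe (a control with no target) in at least 10% of ROIs. Their medians over ROIs ranged from 1.41 times the negative probe for Rps12, 1.44 for Rpl27a and 1.54 for Rpl3 to 26.3 for Rpl23a, 41.4 for Rpl17 and 42.5 for Rpl41. The 14 members whose median lay under 3 times the negative probe included no gene called in RM or RM-HS, averaged over areas. Rplp0, the third stalk protein, is not analysed here. In bulk regions, fewer cells of a type and less RNA per cell cannot be told apart.

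In Sham kidney the members were higher at the corticomedullary junction and in the medulla than in the cortex. At the junction 47 of 70 were higher (all genes tested: 7.14%) and 0 lower, with a median log2 difference of 0.59 against -0.05 over all 8827 genes. In the medulla 41 were higher (all genes: 6.63%) and 0 lower, with a median of 0.40 against -0.05. In glomeruli 4 were higher (all genes: 2.84%) and 13 lower (all genes: 36.5%), with a median of -0.10 where the median over all genes was -0.27. Bright genes outside the set, those with a median of at least 8 times the negative probe, were also often higher: 63 of 129 at the junction (median 0.40) and 76 of 129 in medulla (median 0.45), against 30 and 31 of the 35 members as bright (medians 0.68 and 0.51). Under quantile normalization, which gives all ROIs the same distribution of values, 23 were higher and 6 lower at the junction. With edgeR on the recovered reads, 5 were higher and 0 lower in glomeruli. Without 1 Sham run the medullary count ranged from 20 to 45.

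Rps3a1, a 40S protein, had the largest difference at the junction. On plate C its Sham signal was 102 to 181 in the 6 cortex ROIs, with a median of 121, and 257 to 361 at the junction, with a median of 296. On plate E the cortex ROIs lay between 156 and 181 and the junction ROIs between 322 and 425. The areas did not overlap on either plate, and the log2 difference was 1.19 ± 0.16 (SE, adjusted p = 2.95e-09). Rpl28 was higher by 1.09 ± 0.19 on the log2 scale and Rpl35 by 0.98 ± 0.14, both in the 60S subunit. In the medulla the largest differences were those of Rpl28 (log2 0.78 ± 0.19, adjusted p = 0.00106), Rps16 (0.76 ± 0.11) and Rps21 (0.76 ± 0.12). Rpl35a, a 60S protein, was higher in glomeruli: its plate C signal was 284 to 332 in cortex and 407 to 469 in glomeruli, with no overlap, and the log2 difference was 0.51 ± 0.09. Rps27 and Rpl36a were also higher in glomeruli, by 0.43 ± 0.13 and 0.39 ± 0.09. The Rps27 call was lost without Sham run 2 (adjusted p = 0.0541) or Sham run 3 (0.11), and that of Rpl28 in medulla without Sham run 2 (0.0568). The largest glomerular deficits were those of Rpl36 (log2 -0.95 ± 0.17), Rps20 (-0.78 ± 0.14) and Rpl13 (-0.64 ± 0.13), and edgeR called none of these 3 (adjusted p 0.366, 0.492 and 0.397).

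**Figure D1:**
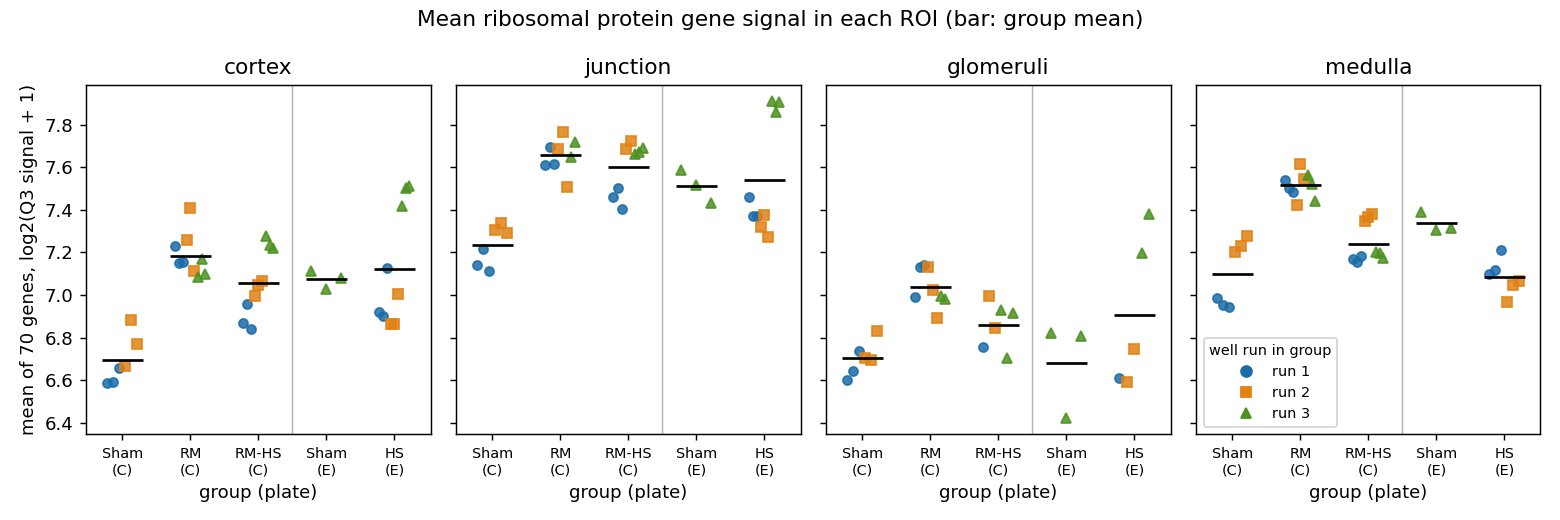
Mean log2(Q3 signal + 1) of the 70 ribosomal protein genes (vertical axis) in each ROI, by area, group and plate, with symbols for the well runs of a group and bars for group means. RM lies above Sham of plate C in each area, and run 3 of HS and the single Sham run of plate E show how far runs stand apart.

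Ribosomal protein genes rose in RM. Against Sham of the same plate, averaged over the 4 areas, 45 of 70 members rose (all genes tested: 7.64%) and 1 fell (all genes: 0.816%). The median log2 fold change of the members was 0.50, against -0.06 over all genes. Members of both subunits took part: 22 of 28 core 40S genes and 21 of 36 core 60S genes rose, with medians of 0.58 and 0.44. The 40S and 60S counts were not tested against each other. Median reads per ROI were higher in RM than in Sham on plate C in each area. They were 1097158 and 561952 in cortex, 1531906 and 1106919 at the junction, 1389775 and 1093096 in medulla, and 147744 and 100457 in glomeruli. The part of depth in the rise was not tested. As a share of reads, the members made up 2.46% ± 0.203 (SD, n = 9) of the RM cortex and 1.86% ± 0.128 (n = 6) of the Sham cortex on plate C. The shares were 3.42% ± 0.244 (n = 8) and 2.63% ± 0.157 (n = 6) at the junction, 3.24% ± 0.201 (n = 9) and 2.57% ± 0.211 (n = 6) in the medulla, and 2.57% ± 0.157 (n = 8) and 2.25% ± 0.105 (n = 6) in glomeruli.

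The 5 largest rises were those of Rps4x, Rps13, Rpl12, Rps23 and Rps24. Rps4x, an X-linked 40S protein, had a cortex signal of 28.5 to 73.3 (median 51.7) in Sham on plate C and 77.1 to 122 (median 86.1) in RM. The 2 groups did not overlap in cortex, and 34 of 34 RM ROIs lay above every plate C Sham ROI of their own area. The log2 fold change was 0.93 ± 0.16 (SE, adjusted p = 2.92e-06), a 1.90-fold rise.

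Rps13, a 40S protein that helps join the subunits, had a cortex signal of 69.8 to 106 (median 79.0) in Sham and 131 to 207 (median 175) in RM, again with no overlap. Its log2 fold change was 0.92 ± 0.12 (adjusted p = 1.42e-10). Rps23 lies at the decoding centre. In cortex it measured 29.6 to 47.6 (median 38.4) in Sham and 55.9 to 114 (median 76.2) in RM, and it rose by 0.89 ± 0.14 on the log2 scale (adjusted p = 6.65e-08). The groups stood apart in cortex for Rps23 as well.

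Rps24 is a 40S protein needed for processing of the small subunit's RNA. It measured 85.7 to 115 (median 102) in Sham cortex and 150 to 259 (median 198) in RM cortex, without overlap, and its log2 fold change over areas was 0.88 ± 0.11 (adjusted p = 2.86e-11). Rpl12 forms the base of the stalk. It measured 37.6 to 61.8 (median 53.6) in Sham cortex and 76.1 to 107 (median 96.3) in RM cortex, without overlap, and rose by 0.89 ± 0.14 (adjusted p = 9.03e-08). On plate E, where no RM ROI was placed, the 3 Sham cortex ROIs lay between 53.5 and 87.6 for Rps4x, 127 and 169 for Rps13, 53.5 and 90.5 for Rpl12, 55.4 and 66.1 for Rps23, and 133 and 158 for Rps24. For all 5 genes these Sham values overlap the RM range of plate C.

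Rps6, the 40S protein that S6 kinases downstream of mTORC1 phosphorylate, rose by 0.79 ± 0.11 on the log2 scale (adjusted p = 1.48e-09). Its cortex signal was 127 to 187 (median 133) in Sham and 227 to 397 (median 269) in RM. Again 34 of 34 RM ROIs lay above every plate C Sham ROI of their own area. Rpl7, a 60S protein, was the member that fell: its cortex signal was 128 to 191 (median 149) in Sham and 87.5 to 149 (median 114) in RM. These ranges overlap, and the log2 fold change over areas was -0.40 ± 0.12 (adjusted p = 0.0145). The Rpl7 call was lost without RM run 1 (adjusted p = 0.206) and without Sham run 1 (adjusted p = 0.63).

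**Figure D2:**
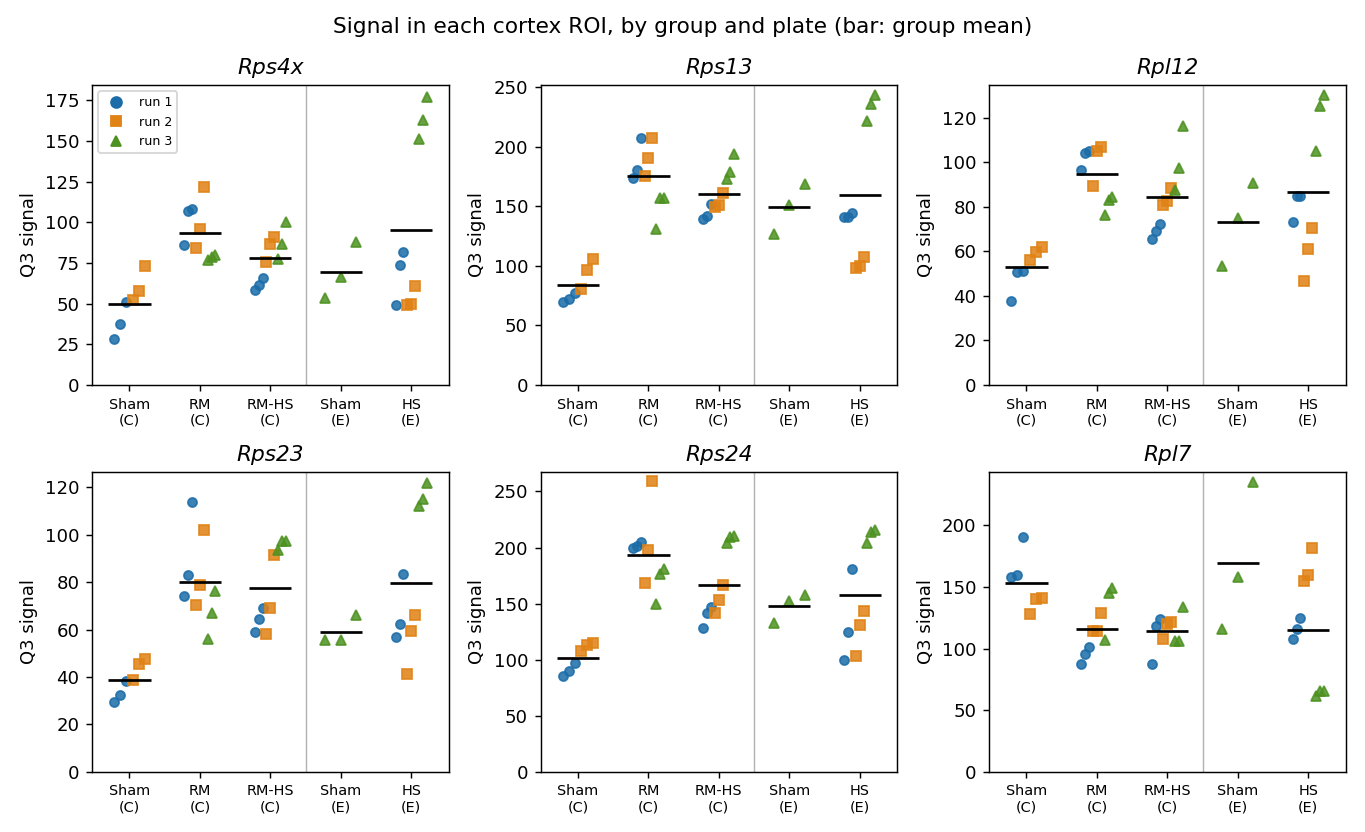
Q3 signal (vertical axis, from 0) of 6 ribosomal protein genes in each cortex ROI, by group and plate, with symbols for well runs and bars for group means. For Rps4x, Rps13, Rpl12, Rps23 and Rps24 every RM ROI lies above every Sham ROI of plate C, while the Rpl7 ranges overlap and the 3 HS ROIs of run 3 stand above the other HS ROIs except for Rpl7, where they are lowest.

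The rise in RM was seen in each area. In cortex 37 members rose (all genes: 5.57%) and 0 fell, with a median log2 fold change of 0.59. At the junction 32 rose (all genes: 4.28%), with a median of 0.53. In medulla 28 rose (all genes: 4.59%), with a median of 0.48. In glomeruli 25 rose (all genes: 7.68%) and 1 fell (all genes: 2.35%), median 0.34. Of the 129 bright genes outside the set, 91 rose in cortex (median 0.88) and 66 in glomeruli (0.59). At the junction 55 of them rose (0.53), and in medulla 47 (0.25). Of the 35 bright members, 23 rose in cortex (median 0.66) and 11 in glomeruli (0.35). At the junction 19 of these rose (0.58), and in medulla 17 (0.52). There were 17 members that rose in all 4 areas, and the share of all genes that did so is not given here. Among the 17 were Rpl12, Rpl19, Rpl22, Rpl35, Rplp2, Rps13, Rps16, Rps19, Rps20, Rps23, Rps24, Rps3a1, Rps4x and Rps6.

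The largest rises by area were those of Rpl35 (log2 1.09 ± 0.19) and Rps13 (1.06 ± 0.17) in cortex, and of Rps3a1 (0.95 ± 0.23) and Rps27l (0.93 ± 0.25) at the junction. In glomeruli they were Rpl12 (1.19 ± 0.20, adjusted p = 3.04e-06) and Rps24 (1.10 ± 0.16), and in medulla Rps4x (1.06 ± 0.23) and Rps23 (1.01 ± 0.19). The glomerular signal of Rps24 was 45.7 to 120 (median 92.1) in Sham on plate C and 138 to 220 (median 197) in RM, so the groups did not overlap. The gene that fell in RM glomeruli was Rpl35a, from 407 to 469 (median 451) in Sham to 291 to 475 (median 325) in RM. These ranges overlap through 1 high RM value, and the log2 fold change was -0.38 ± 0.13 (adjusted p = 0.0347). The call was lost without RM run 1 (0.164), RM run 3 (0.12), Sham run 1 (0.221) or Sham run 2 (0.115).

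Whether the RM effect differed between areas was asked with an F test. It called 1 member, Rpl22l1 (adjusted p = 0.0236; all genes: 6.96%), with log2 fold changes of 0.41 at the junction, 0.37 in medulla, 0.09 in cortex and -0.35 in glomeruli, none of them called by itself.

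**Figure D3:**
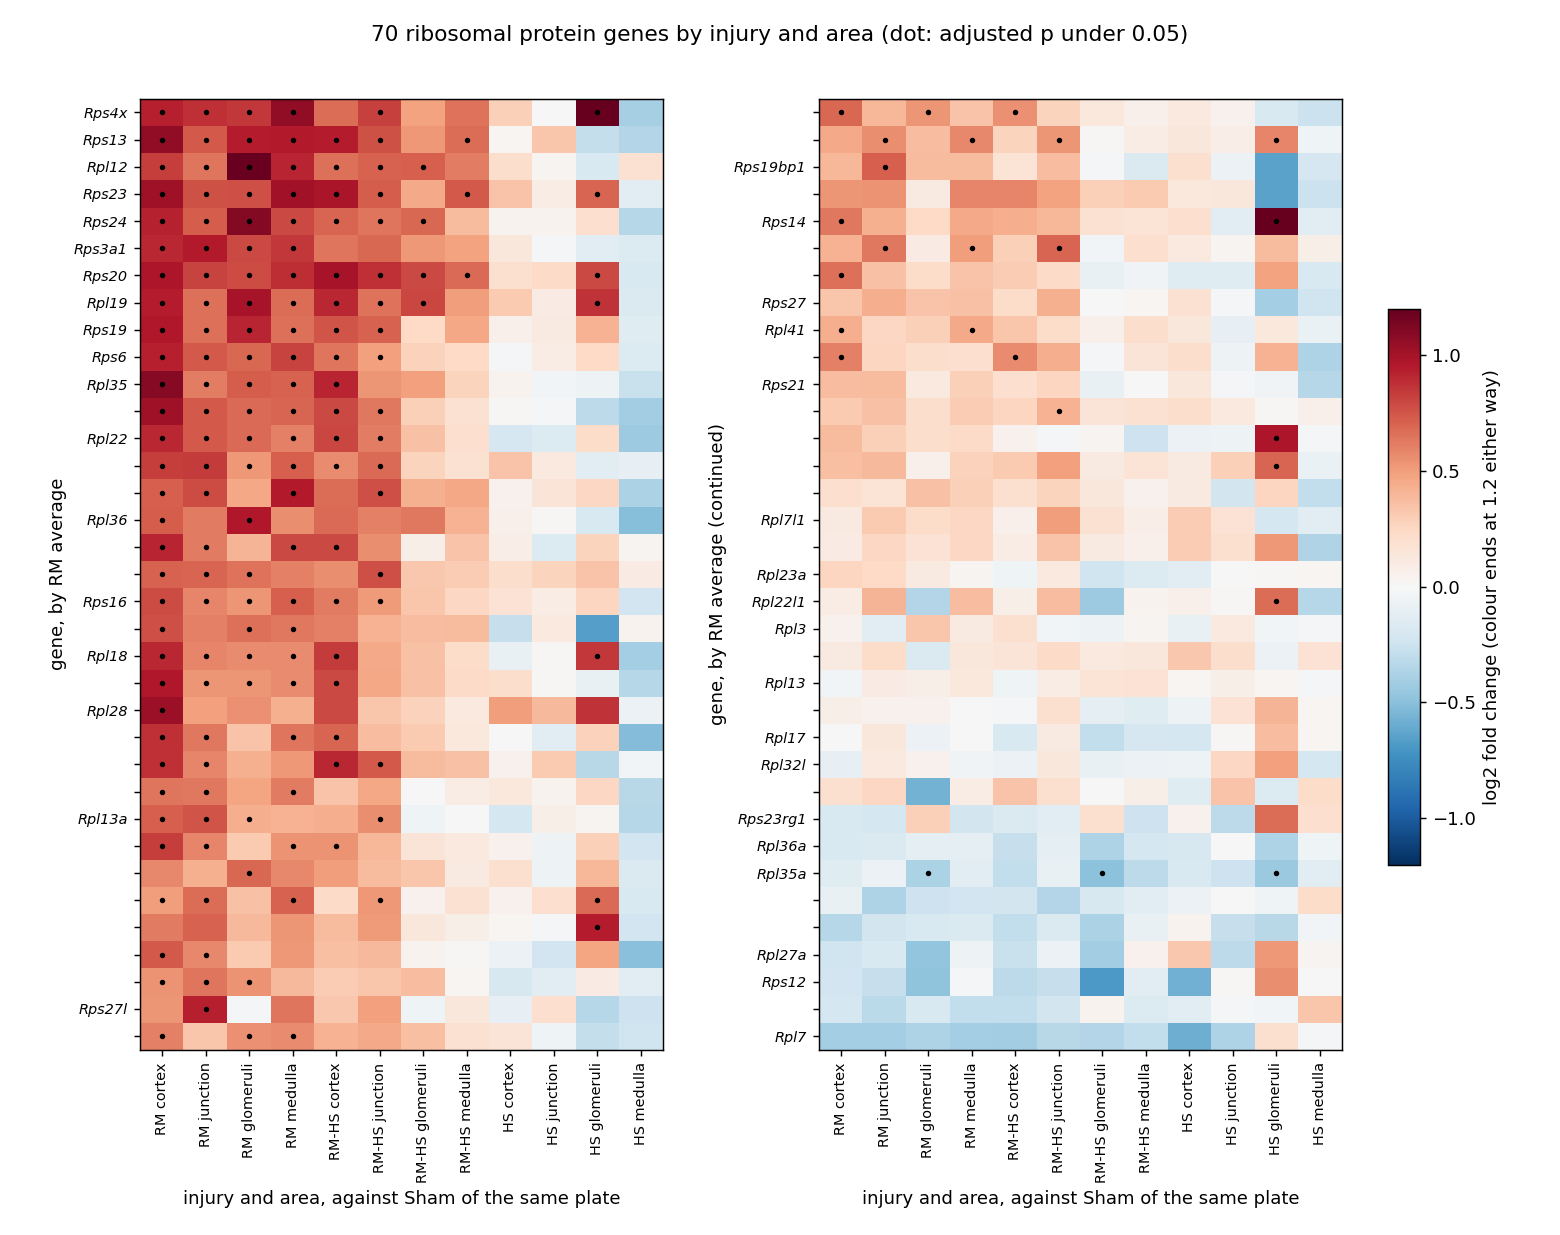
Log2 fold change of each of the 70 genes (rows, ordered by the RM average, with names for the genes taken by the naming rule) in 3 injuries and 4 areas (columns) against Sham of the same plate, with a dot where the adjusted p was under 0.05. RM columns hold 25 to 37 rises each, the RM-HS columns of glomeruli and medulla 4 and 3, and the HS columns of cortex, junction and medulla none.

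Bright genes in general rose in RM, as did the members. Of 129 genes outside the set whose median was at least 8 times the negative probe, 78 rose and 5 fell, with a median log2 fold change of 0.58. Of the 35 members as bright, 28 rose and 0 fell, with a median of 0.56. This comparison was added after the data were seen. After quantile normalization, 20 members rose and 10 fell in the RM average and the median was 0.09. Under that scaling 5 bright members rose and 9 fell, with a median of -0.03. Of the bright genes outside the set 46 rose and 37 fell, with a median of 0.10. The median over all genes under the same scaling was -0.04. Rps4x (0.84), Rps23 (0.82), Rpl12 (0.77), Rps13 (0.60), Rps24 (0.47) and Rps6 (0.25) still rose under it, while Rpl17 (-0.60) and Rpl23a (-0.37), which were not called as deposited, fell. The part of the scaling in the RM result was not tested further.

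**Figure D4:**
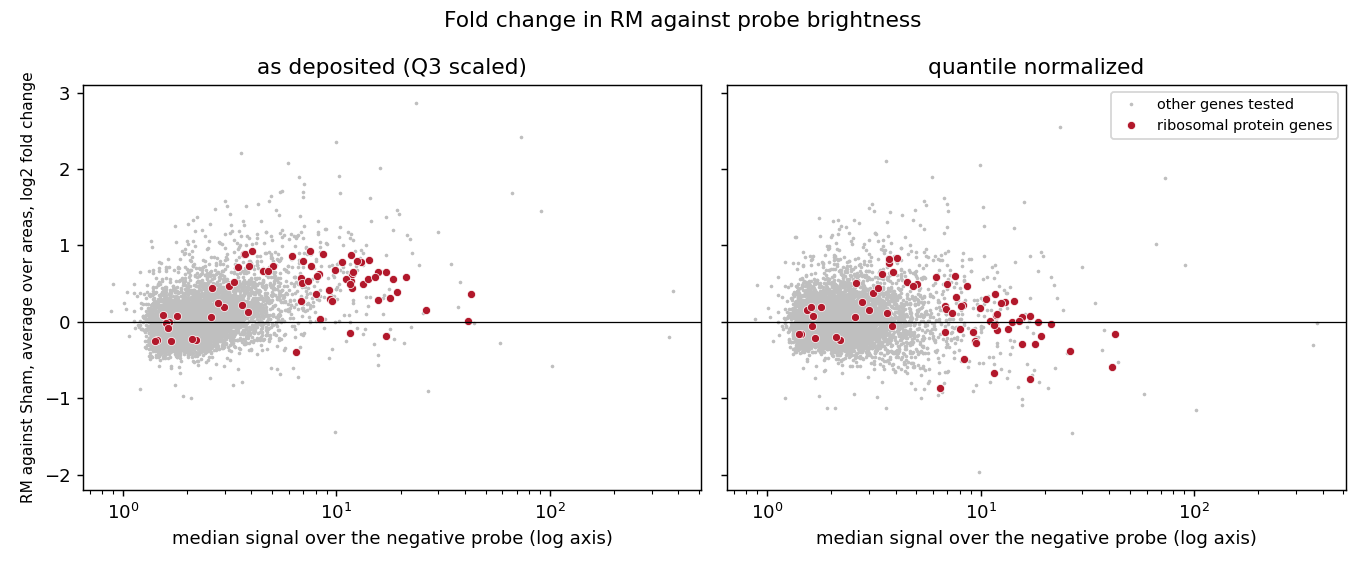
Log2 fold change in RM against Sham, averaged over areas (vertical axis), against a gene's median signal over the negative probe (log axis), for the 70 ribosomal protein genes and the other genes tested, as deposited and after quantile normalization. Bright genes lie mostly above 0 in the left panel, and the members' median moves from 0.50 to 0.09 in the right panel.

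The members' rise depended in size on which Sham run was present. Sham run 1 had the lowest mean of the members among the 12 runs, 6.85 on the log2 scale averaged over areas, against 7.02 for Sham run 2 and 7.15 for Sham run 3 on plate E. The 3 RM runs had 7.35, 7.36 and 7.32. Without Sham run 1, 23 members rose in the RM average and the median was 0.40. In single areas, 8 were then called in cortex, 5 in glomeruli, 1 at the junction and 1 in medulla. Calls lost without it included Rpl35 in cortex (adjusted p = 0.0506), Rps3a1 (0.236) and Rps27l (0.513) at the junction, Rpl12 in glomeruli (0.128), and Rps4x (0.253) and Rps23 (0.206) in medulla. Rps27l at the junction was also lost without RM run 1 (0.0598). With 1 mean per run and area, 26 members rose and 0 fell in the RM average.

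In RM-HS, 26 of 70 members rose against the same Sham ROIs, averaged over areas (all genes: 6.14%), and 1 fell (all genes: 0.85%). The median log2 fold change was 0.25, against -0.02 over all genes. There were 14 of 28 core 40S genes and 12 of 36 core 60S genes among those that rose. Without Sham run 1, 3 members rose and 0 fell, and with 1 mean per run and area 8 rose. Quantile normalization gave 15 rises and 10 falls, with a median of 0.01. Median reads per ROI were higher in RM-HS than in Sham on plate C too. They were 920588 and 561952 in cortex, 1428990 and 1106919 at the junction, 1564807 and 1093096 in medulla, and 130291 and 100457 in glomeruli. The part of depth was not tested here either. In the bright genes outside the set, 70 of 129 rose, with a median of 0.47, and in the 35 bright members 14 rose, with a median of 0.27.

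Rps20, a 40S protein of the head of the small subunit, had the largest rise in RM-HS. Its cortex signal was 66.6 to 100 (median 77.5) in Sham on plate C, 133 to 209 (median 150) in RM-HS and 124 to 184 (median 161) in RM. Both injuries lay wholly above Sham in cortex. The log2 fold change over areas was 0.84 ± 0.13 (adjusted p = 2.94e-07), and 30 of 32 RM-HS ROIs exceeded every plate C Sham ROI of their own area. Rps23 (0.72 ± 0.14), Rps13 (0.72 ± 0.12), Rpl19 (0.71 ± 0.12) and Rpl12 (0.67 ± 0.14) followed. Without Sham run 1 the calls of Rps23 (adjusted p = 0.0829), Rpl19 (0.0576) and Rpl12 (0.352) were lost. Rps6 rose by 0.41 ± 0.11 (adjusted p = 0.00515). Rpl35a fell by 0.30 on the log2 scale (SE 0.09, adjusted p = 0.0175). Its call was lost without RM-HS run 1 (adjusted p = 0.124), RM-HS run 3 (0.0728), Sham run 1 (0.478) or Sham run 2 (0.0882).

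By area, 21 members rose in RM-HS cortex (all genes: 3.91%), median 0.35, and 21 at the junction (all genes: 4.68%), median 0.43. In glomeruli 4 rose (all genes: 3.77%) and 1 fell (all genes: 1.06%), median 0.14, and in medulla 3 rose (all genes: 3.29%), median 0.14, so that both shares were near those of all genes. Without Sham run 1, limma called 2 in glomeruli and 0 in each of the other areas. Rps20 rose in each area, by 0.88 ± 0.19 at the junction, 0.99 ± 0.19 in cortex, 0.68 ± 0.19 in medulla and 0.79 ± 0.20 in glomeruli. The medullary calls were lost also without RM-HS run 2 for Rps20 (adjusted p = 0.0812) and without RM-HS run 3 for Rps23 (0.0683). Rps23 rose by 0.98 ± 0.19 in cortex and 0.74 ± 0.19 in medulla, Rps4x by 0.82 ± 0.23 at the junction (lost also without RM-HS run 2, adjusted p = 0.112, or RM-HS run 3, 0.148) and Rpl19 by 0.80 ± 0.18 in glomeruli. Rpl35a fell in glomeruli, with a log2 fold change of -0.49 ± 0.13 (adjusted p = 0.0147). Its signal there was 407 to 469 in Sham on plate C and 296 to 386 (median 311) in RM-HS, with no overlap. In glomeruli the Rps20 call was lost without RM-HS run 2 (adjusted p = 0.122) or Sham run 2 (0.11). That of Rpl19 was lost without RM-HS run 2 (0.0537) or Sham run 1 (0.136). That of Rpl35a was lost without RM-HS run 3 (0.11), Sham run 1 (0.131) or Sham run 2 (0.0616). EdgeR called none of Rps20, Rpl19 and Rpl35a there (adjusted p 0.337, 0.118 and 0.0903). With 1 mean per run and area, limma called none of them either (0.0813, 0.157 and 0.237). The F test between areas called Rpl13a, a 60S protein (adjusted p = 0.0167; all genes: 5.55%), with log2 fold changes of 0.56 at the junction, 0.44 in cortex, 0.00 in medulla and -0.05 in glomeruli.

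RM-HS was compared directly with RM, both on plate C. Averaged over areas, 63 of 70 members had a log2 difference below 0 and 7 above, with a median of -0.18 against 0.03 over all genes. With limma 0 were called (all genes: 0.238%); at an unadjusted p under 0.05 there were 23, all lower in RM-HS, and edgeR on the recovered reads, which has no block for the run, called 24, all lower. The limma count was 23 with each plate fitted alone, 18 without HS run 3, 4 without HS run 2, 3 without Sham run 3, 2 without HS run 1 and 0 without any other run, all lower in RM-HS. None of those 4 runs holds an RM or RM-HS ROI. Averaged over areas, 41 of the 129 bright genes outside the set had a difference above 0, with a median of -0.12. Limma called 3 of these 129 higher and 6 lower in RM-HS. Of the 35 bright members 0 had a difference above 0, with a median of -0.24. In medulla 2 members were lower in RM-HS (all genes: 0.385%). Rpl10a, a 60S protein, was lower by 0.54 on the log2 scale (a difference of -0.54 ± 0.11, adjusted p = 0.0021). The other was Rps6 (-0.57 ± 0.14, adjusted p = 0.0143). Rpl10a measured 273 to 311 in Sham on plate C, 309 to 378 in RM-HS and 441 to 557 in RM. RM and RM-HS did not overlap for Rpl10a in medulla. Rps6 measured 179 to 265 in Sham, 221 to 320 in RM-HS and 342 to 461 in RM, where RM again stood apart. In glomeruli 2 were lower (all genes: 1.11%): Rps19, a 40S protein needed for maturation of the small subunit (-0.66 ± 0.19, adjusted p = 0.0451), and Rpl13a (-0.49 ± 0.14, adjusted p = 0.0451).

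In HS, no change of the members was detected in the average. With limma 0 of 70 were called (all genes: 0.193% in either direction), 1 was higher and 1 lower at an unadjusted p under 0.05, and edgeR on the recovered reads called 0. The median log2 fold change was 0.03. The 3 members of lowest p were Rps14 (0.38 ± 0.15, adjusted p = 0.654), Rpl35a (-0.25 ± 0.11, adjusted p = 0.78) and Rpl28 (0.42 ± 0.23, adjusted p = 0.921). In cortex limma called 0 (all genes: 0.0793%), with 1 lower at an unadjusted p under 0.05. At the junction it called 0 (all genes: 0.193%), with 0 at an unadjusted p under 0.05, and in medulla 0 (all genes: 0.272%), with 2 lower at that level. EdgeR called 0 in these 3 areas too. The median was 0.01 at the junction, 0.05 in cortex and -0.16 in medulla, where 55 of 70 members lay below 0. The medulla held ROIs of HS runs 1 and 2 only. In cortex the mean of the members in these runs was 6.98 and 6.91 on the log2 scale. There HS run 3 had 7.48, and Sham on plate E 7.07. The medullary value therefore does not rest on the same runs as those of the other areas.

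The HS runs differed among themselves. The mean of the members, averaged over the areas sampled, was 7.03 in HS run 1 and 6.98 in run 2, and 7.55 in run 3, which had no medulla ROI. At the junction the members took 2.77% of reads in run 1, 2.78% in run 2 and 3.92% in run 3, against 3.08% in Sham on plate E. Median depth at the junction was 561505, 342696 and 993504 reads in the 3 HS runs, and the negative probe 25.4, 21.5 and 16.3. The part of depth and background in this spread was not tested. Without HS run 3, 1 member rose and 14 fell in the HS average, and the median was -0.17. How many of all genes were called in that fit is not given here.

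HS glomeruli were the exception among the HS areas. There 12 members rose (all genes: 9.87%) and 1 fell (all genes: 9.6%), so the share that rose was 17.1%, and the median was 0.23. In the same ROIs 2 of 5 podocyte markers fell (median of the 5, -0.81), and 1 of 3 endothelial and 1 of 5 proximal tubule markers rose. Their part in the members' change was not tested. Rps14, a 40S protein at the platform of the small subunit, rose by 1.61 ± 0.23 on the log2 scale (adjusted p = 3.06e-08). Its 3 Sham ROIs on plate E measured 29.1, 58.2 and 163, and the 5 HS ROIs 128, 140, 184, 297 and 368. The ranges overlap. The Sham values rest on 1, 3 and 14 recovered reads of Rps14, in ROIs of 17894, 20345 and 41933 recovered reads. No value of any gene was 0, so a recovered count of 1 may be a floor and not a read.

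Rps4x rose by 1.44 ± 0.31 (adjusted p = 0.000283). Its Sham ROIs measured 11.6, 29.1 and 38.8, from 1 or 2 recovered reads each, where 1 may again be a floor. The HS ROIs measured 23.3, 38.8, 69.8, 136 and 163. The 2 highest values were those of HS run 3, and the ranges overlap. Rpl35a fell (-0.45 ± 0.17, adjusted p = 0.0445), from 446, 489 and 698 in Sham to 323, 384, 407, 407 and 454 in HS, with an overlap of 1 ROI. Its call was lost without HS run 3 (adjusted p = 0.0964), and without RM run 1, RM run 3, any RM-HS run, Sham run 1 or Sham run 2 (0.0501 to 0.0597). The glomerular calls were few with each plate fitted alone (1 member), with 1 plate term (1) or with edgeR (0). The F test between areas called 9 of 70 members in HS, a share below that of all genes (15.3%), led by Rps14 (adjusted p = 6.86e-08), Rpl18 (0.000426) and Rps4x (0.000469). For Rpl18 the log2 fold changes were 0.85 in glomeruli, 0.01 at the junction, -0.09 in cortex and -0.41 in medulla. The medulla held no ROI of HS run 3, so this F test did not compare the areas over the same runs.

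The RM effect and the HS effect, each against Sham of its own plate, were tested against each other in the same fit, an addition made after the separate counts were seen. The RM effect was the higher for 18 members (all genes: 2.44%) and the lower for 0, and the median difference was 0.46 on the log2 scale. Of the bright genes outside the set 52 of 129 (40.3%) were higher, with a median of 0.61, against 11 of 35 bright members (31.4%), with a median of 0.49. The largest were those of Rps13 (0.99 ± 0.19, adjusted p = 0.000149), the stalk protein Rplp2 (0.96 ± 0.21), Rps3a1 (0.91 ± 0.26) and Rps24 (0.90 ± 0.18). Rps6 differed by 0.75 ± 0.17 (adjusted p = 0.00336). Without Sham run 1 the count was 2, without HS run 3 it was 51, and with 1 mean per run and area 0. The RM-HS effect exceeded the HS effect for 1 member, Rps13 (0.79 ± 0.19, adjusted p = 0.0105; all genes: 0.986%), and without HS run 3 the count was 44.

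The 6 relatives were given beside their parent genes, except Rpl32l, for which no parent gene was among the members. Rps27l, a paralog of Rps27 known as a p53 target, rose in RM (0.52 ± 0.17, adjusted p = 0.0339), as did Rps27 (0.37 ± 0.12, adjusted p = 0.0365). At the junction Rps27l measured 61.9 to 93.2 (median 81.0) in Sham on plate C and 128 to 172 (median 148) in RM, with no overlap. Rps19bp1, a protein that binds Rps19, rose by 0.47 ± 0.14 (adjusted p = 0.0167), and Rps19 by 0.80 ± 0.14. Rpl22 rose by 0.73 ± 0.13 (adjusted p = 3.91e-06), while its paralog Rpl22l1 had 0.13 ± 0.12 (adjusted p = 0.568). Rpl7 fell, and Rpl7l1 had 0.22 ± 0.12 (adjusted p = 0.266). Rps23 rose by 0.89 ± 0.14, while Rps23rg1, at 1.62 times the negative probe, had -0.08 ± 0.14. Rpl32l, at 1.64 times, had 0.01 ± 0.15. The differences between relatives and parents were not tested. The Rps27l call was lost without any RM run (adjusted p 0.104 to 0.11), either plate C Sham run (0.63 and 0.0894), RM-HS run 2 (0.0551) or RM-HS run 3 (0.0571). That of Rps27 was lost without any RM run (0.0547 to 0.222), Sham run 1 (0.862) or RM-HS run 2 (0.0564), and that of Rps19bp1 without RM run 2 (0.106), RM run 3 (0.0772), Sham run 1 (0.11) or Sham run 2 (0.226). In RM-HS the log2 fold changes of the 6 relatives lay between -0.09 and 0.23, and none passed the test. Probes designed for mouse sequence on rat tissue, and near-identical paralogs, can share signal, which these data do not resolve.

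Of 3 tested proteins of the same ribosome that the rule leaves out, 1 was called. Fau, which carries the 40S protein eS30, rose in RM (0.66 ± 0.12, adjusted p = 5.31e-06) and in RM-HS (0.44 ± 0.12, adjusted p = 0.00766). Rack1, a scaffold on the 40S head, had 0.26 ± 0.12 in RM (adjusted p = 0.209), and Rpsa had -0.06 ± 0.11 (adjusted p = 0.771). Proteins of the mitochondrial ribosome, which is built from other genes, were not called: limma called 0 of 52 tested in each injury average. At an unadjusted p under 0.05 there were 2 higher and 1 lower in RM, 3 and 3 in RM-HS, and 2 and 3 in HS, and edgeR called 5 higher and 6 lower in RM, 4 and 7 in RM-HS, and 0 in HS. Their medians were -0.03, -0.02 and -0.04.

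Other lists are read against the shares of all genes that rose, 7.64% in RM and 6.14% in RM-HS. Among the bright genes outside the set these shares were 60.5% and 54.3%. The lists were not matched for brightness. Fau and Eef2, which are on them, lay at 16.2 and 22.1 times the negative probe. Of 29 tested genes of ribosome biogenesis, 6 rose in RM (20.7%) and 5 in RM-HS (17.2%) and 0 fell, with medians of 0.16 and 0.10. Those in RM were the nucleolar proteins Npm1 (log2 1.34 ± 0.18) and Ncl (1.27 ± 0.17), the box C/D factors Nop56 (0.61 ± 0.12) and Nop58 (0.57 ± 0.14), the 60S export and anti-association factor Eif6 (0.68 ± 0.15) and the 40S maturation factor Tsr1 (0.47 ± 0.16). Of 14 tested genes of other TOP mRNAs, which include Fau, Rack1 and Npm1, 7 rose in RM and 6 in RM-HS (42.9%). Among them were the poly(A)-binding protein Pabpc1 (1.11 ± 0.14 in RM, 0.73 ± 0.14 in RM-HS), the elongation factor Eef2 (1.08 ± 0.16 in RM) and Eef1b2 (0.72 ± 0.14 in RM).

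Of 17 tested genes of the mTORC1 pathway and its brakes, 1 rose in RM and 1 in RM-HS (5.88% each). These shares are near those of all genes that rose (7.64% and 6.14%). Larp1, which binds TOP mRNAs, rose in RM (0.72 ± 0.18, adjusted p = 0.00161), and Ddit4, a stress-induced inhibitor of mTORC1, rose in RM-HS (0.66 ± 0.16, adjusted p = 0.00146). Of 9 tested genes of ribosome quality control and hibernation, 3 rose in RM: Serbp1, which clamps idle ribosomes (0.98 ± 0.09), Zfp598, which ubiquitinates collided ribosomes (0.52 ± 0.16), and Rnf10 (0.43 ± 0.11). In RM-HS 2 rose. Of 3 tested genes of the p53 arm, Cdkn1a, a cell cycle inhibitor, rose in RM (0.66 ± 0.13) and in RM-HS (0.67 ± 0.13).

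Across ROIs, after the mean of each group, area and plate was subtracted, most members varied together. The Pearson correlation of a member with the mean of the other members over 131 ROIs was above 0.5 for 49 of 70, with a median of 0.65, and was highest for Rplp2 (0.90). Among the 14 members under 3 times the negative probe the median was -0.20. The lowest were those of Rps23rg1 (-0.64), Rpl7 (-0.61) and Rpl9 (-0.55). The 5 genes outside the set with the highest correlation with the members' mean were Fau (0.91), Eef2 (0.90), Atp6v0c (0.89), Eif5a (0.89) and Atp5a1 (0.89). The median over the other 8757 genes was -0.10. The members' mean correlated at 0.47 with log2 reads of the ROI and at -0.46 with the log2 negative probe, so that these points share depth and background as well as the run, and no p is given.

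Markers of other cells were measured beside the members. In RM, 1 of 5 proximal tubule markers rose in the average (median of the 5, 0.10) and 2 of 5 in cortex (median 0.59). Also in the RM average, 1 of 3 loop of Henle markers fell (Slc12a1, -0.68 ± 0.19), 1 of 2 collecting duct markers fell (Aqp2, -0.61 ± 0.20), 1 of 3 endothelial markers rose (Flt1, 0.60) and 1 of 5 macrophage markers rose (Cd74, 0.70 ± 0.20). In RM glomeruli 3 of 5 podocyte markers rose, and at the junction and in medulla 2 of 3 loop of Henle markers fell. In the RM-HS average, 2 of 5 macrophage markers rose (Cd74, 0.69 ± 0.20, and C1qc, 0.47 ± 0.14), 1 of 2 collecting duct markers fell (Aqp2, -0.61 ± 0.20) and 1 of 5 proximal tubule markers rose (median of the 5, 0.20). In RM-HS cortex 2 of 5 proximal tubule markers rose (median 0.77), and in RM-HS glomeruli 2 of 3 endothelial markers rose (median 1.01). The summed signal of the 5 macrophage markers was 145 to 432 in RM ROIs, 174 to 442 in RM-HS ROIs and 128 to 295 in Sham ROIs of plate C. The listed markers of podocytes, lymphocytes, neutrophils, red cell precursors and skeletal muscle had no called gene in the RM average, with 5, 1, 1, 1 and 3 markers measured. No proliferation marker of the list was analysed here. No value of any gene was 0, so a marker above 0 does not show that its cell type was present. The part of cell composition in the members' rise was not tested.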

How the data were processed

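Per the labels, sections 4 µm thick were hybridised with mouse whole-transcriptome probes and sequenced. Of genome builds, GRCh38 and hg38 stand in the submitters' processing notes; both are human and their role is not stated. The counting software: not given in the sources used here. The deposited values are signal that the authors scaled to the upper quartile, which was 58.1573 in each of 132 ROIs. Dividing by 1 factor per ROI gave whole numbers for 100% of values, within 1e-04, and these are called reads here. No 2 ROIs were identical and no value was 0. A recovered count of 1 may therefore be a floor and not a read. Levels follow reads captured by a probe, so a low level lies close to the negative probe and its fold change is understated.

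A gene was kept where 10% of ROIs or more exceeded 2 times the negative probe, which left 8827 of 9271. Log2 values (pseudocount 1) were fitted with limma 3.58.1 (R 4.3.3, statmod 1.5.0): 20 means of injury and area, Sham per plate, runs as random blocks (estimated correlation 0.136), a variance trend, and Benjamini-Hochberg adjustment over all genes kept. Adjusted p under 0.05, two-sided, was called. The plate A ROI (RM, glomeruli) was left out. Fold changes are on the log2(value + 1) scale. Alternatives were a pseudocount of 5, no filter, a filter of 50% of ROIs, quantile normalization, subtraction of the negative probe, edgeR 4.0.16 on recovered reads (quasi-likelihood, no block), 1 plate term, each plate alone, 1 mean per run and area, and each run left out. The scripts were tested on simulated data.

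The members and lists were chosen with earlier results of these data known. By the naming rule, the text names Rps6 and the relatives, with their parents where these are members. It also names the called members with the 5 largest rises and falls of each injury average, the 2 largest of each injury and area, the 3 largest between Sham areas and the 3 of lowest p in each F test. Where under 3 were called in an average, the 3 of lowest p are given. The 3 brightest and 3 dimmest members and the 5 most alike other genes complete it. Some genes are not reported here. All other named genes, such as the 17 that rose in all RM areas, those from single areas of RM-HS against RM and those of the added comparison, were chosen after their values were seen. ROIs are compared over samples that the labels do not assign to animals, so p-values measure the spread between ROIs and runs.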

Additional observations from a re-analysis of the deposited data

Results flagged for a closer look

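An F test in limma, adjusted over all genes, gave members whose effect against Sham differed between the 4 areas. In HS these were Rps14 (adjusted p = 6.86e-08), Rpl18 (0.000426), Rps4x (0.000469), Rps18 (0.00101), Rpl10a (0.00533), Rpl19 (0.019), Rpl27 (0.0398), Rpl22l1 (0.0424) and Rps29 (0.0454). These are 9 of 70 members, where 15.3% of all genes were called. With edgeR the count of members was 0, and with each plate fitted alone 1. HS run 3 had no medulla ROI, so the areas were not compared over the same runs. All 9 had their highest fold change in glomeruli, where the 3 Sham ROIs of plate E held a median of 20345 reads. Rps18 had a log2 fold change of 0.97 in HS glomeruli and between -0.07 and -0.01 in the other areas. In RM the test gave Rpl22l1 (adjusted p = 0.0236) and in RM-HS Rpl13a (adjusted p = 0.0167).

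The RM effect and the HS effect differed for 18 members, each effect against Sham of its own plate, where 2.44% of all genes had the higher RM effect. The RM-HS effect and the HS effect differed for 1 member, where 0.986% of all genes had the higher RM-HS effect. The share of reads taken by the members held no ROI far from the rest of its group and area in 16 groups tested, where chance alone marks about 1 in 20.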

How the results depend on the processing

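Values are counts of the 70 members called, in the order average, cortex, junction, glomeruli, medulla where several areas moved, and the cause of each move was not tested. Without a filter no count moved by over 1.5 times. A pseudocount of 5 gave 2 members in the RM-HS F test. The stricter filter gave 1 in RM-HS against RM, 5 in the RM-HS F test and an RM median of 0.55. Quantile normalization gave RM 30 on average, 7 at the junction, 21 in cortex and 14 in medulla, RM-HS 11 in glomeruli, 4 at the junction and 10 in medulla, Sham junction 29 and medulla 22, F tests 5 in RM and 3 in RM-HS, 10 for RM-HS minus HS, and medians of 0.09 in RM and 0.01 in RM-HS. It reversed the RM average of Rps27 (-0.10), Rps14 (-0.11), Rpl13a (-0.03), Rpl23a (-0.37), Rpl17 (-0.60) and Rpl41 (-0.16). Subtracting the negative probe gave 24 in HS glomeruli, RM-HS 13, 3 and 1 for junction, glomeruli and medulla, 3 in RM-HS against RM, F tests 21 in HS and 2 in RM-HS, 2 for RM-HS minus HS, an RM median of 0.61 and an RM share difference of 0.722 percentage points.

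EdgeR on recovered reads gave RM 52, 7 and 46 for junction, glomeruli and medulla, HS glomeruli 0, RM-HS 46, 33, 49, 0 and 8, Sham glomeruli 5, RM-HS against RM 24, F tests 0 in HS and 4 in RM-HS, 4 for RM-HS minus HS, and an RM median of 0.53. A single plate term gave HS glomeruli 1, RM-HS glomeruli 8, the RM F test 0 and RM-HS minus HS 2. Each plate alone gave RM glomeruli 42 and medulla 43, HS glomeruli 1, RM-HS 47, 40, 43, 21 and 10, RM-HS against RM 23, and F tests 5 in RM, 1 in HS and 15 in RM-HS. With 1 mean per run and area, which has fewer samples, RM had 26, 8, 2, 2 and 4, HS glomeruli 3, RM-HS 8, 1, 1, 0 and 0, the Sham junction 25, glomeruli 5 and medulla 7, the F tests 0 in RM, 2 in HS and 0 in RM-HS, and both effect differences against HS 0.

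Leaving out 1 run at a time gave RM 23 to 54 on average, 1 to 40 at the junction, 8 to 43 in cortex, 1 to 41 in medulla and 5 to 35 in glomeruli. HS had 0 to 15 on average, 0 to 1 in cortex, 10 to 23 in glomeruli and 0 to 4 in medulla. RM-HS had 3 to 44, 0 to 34, 0 to 33, 2 to 11 and 0 to 7. Sham glomeruli had 10 to 18 and medulla 20 to 45, and RM-HS against RM 0 to 18. The F tests had 0 to 2 in RM, 6 to 14 in HS and 0 to 5 in RM-HS. The RM effect minus the HS effect had 2 to 51 and RM-HS minus HS 0 to 44. The RM median was 0.40 to 0.57 and its share difference 0.486 to 0.706 percentage points. HS comparisons could not be run without Sham run 3, the 1 Sham run of its plate, and plates alone give no Sham areas.

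No paired analysis was possible because the replicate numbers follow the order of accessions and pair no ROIs between groups. Reads limit glomeruli most, with 20345 at the median of Sham on plate E, against 100457 on plate C.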

Other observations

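The RM glomerular ROI on plate A, which entered no comparison, held 70977 reads, of which the members took 2.21%. The 8 RM glomerular ROIs in the fit had 2.34% to 2.80%, and the 9 Sham glomerular ROIs 2.09% to 2.36%.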
